A study of Mus musculus with 17 samples.

Results

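The change of the lateral wall lineage of the postnatal mouse forebrain between 1-2 days and 4 days after electroporation was examined in 8 of the 17 lateral samples of a time course, 3 taken at 1 day, 2 at 2 days and 3 at 4 days. They are the Cy5 channels of all arrays that the labels give those times. In the study, pups of the CD1 strain received DNA by in vivo electroporation at postnatal day 1, aimed at progenitors of either the dorsal or the lateral wall of the subventricular zone (SVZ). Fluorescent (GFP) cells were sorted by FACS 8 hours to 14 days later. Each array of the 17 carried a dorsal sample in Cy3 and a lateral sample in Cy5, and the dyes were never exchanged. The labels also name polyA RNA for the dorsal channel and total RNA for the lateral one, under a single protocol text that isolates mRNA. Wall, dye and named RNA type therefore coincide and cannot be told apart. All groups used here share the strain, the electroporation and the sort, and no sample without electroporation was compared. The promoter that drove GFP, the number and sex of the animals in a sample and the purity of the sort are not given in the sources used here, and the cDNA was amplified by a global PCR before labelling. The labels call the arrays biological replicates without saying what differed between them. The p-values therefore measure the spread between samples of the same time, pooled over all 17 lateral samples.

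As background, progenitors that line the lateral ventricle of newborn mice divide as radial glia and then as transit amplifying cells, whose daughters become neuroblasts. Neuroblasts migrate along the rostral migratory stream, reach the olfactory bulb and mature there into interneurons, most of which use GABA. Progenitors of the ventricular wall also give rise to ependymal cells, which carry motile cilia, and to astrocytes. The lateral wall descends from the subpallium of the embryo and is known for factors of the Dlx and Gsx families.

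Levels are given on a log2 scale after normalization, on which 1 unit is a doubling and about 6 is the level of probes at background. A gene counts as well above background on an array where any of its probes was, while its level is that of 1 probe. Of the 8 lateral samples, 58.6% to 79.7% of the spots were well above background, the median Cy5 signal over background was 73 to 550 units, and no spot was saturated. The 1 day replicate 1 sample stood apart: across genes its correlation with the other 7 samples was 0.58 to 0.65, while those 7 correlated at 0.84 to 0.96 with each other. The 3 samples of 1 day also shared a slide that held no other time point, so that the time and the slide cannot be told apart. Replicates 1 and 2 of 2 days shared their slides with replicates 1 and 2 of 4 days, and the difference of 4 days minus 2 days within each of these 2 slides is given beside the results. Replicate 3 of 4 days lay on a further slide, which held no sample of 1 day or 2 days. It was the only sample of the 8 read with the later software version. It therefore differed in slide, scan day and software version from every earlier sample it was compared with. Two-sided adjusted p-values come from limma, with Benjamini-Hochberg adjustment over 25585 genes.

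The samples of 1 day and 2 days were compared before they were pooled. Limma called 2 genes between them (0.00782% of 25585), with 2167 at an unadjusted p under 0.05. The calcium channel subunit gene Cacna2d3 was higher at 2 days by 4.65 ± 0.53 log2 (SE, adjusted p = 0.0177), with levels of 6.43, 6.41 and 6.32 in the 3 samples of 1 day and 11.88 and 10.20 at 2 days. Its levels at 1 day lay near background, and 3 of the 5 arrays of both times held it well above, so the difference has no exact size. Klf1, which encodes a zinc finger factor known from red blood cell precursors, was higher at 2 days by 3.5 ± 0.43 log2 (adjusted p = 0.0192), at 7.18, 6.59 and 8.08 against 10.67 and 10.91. The few calls do not show that both times were alike. The difference between 2 days and 1 day exceeded 1 log2 in 33.3% of genes, and in 20.2% without 1 day replicate 1, beside 26.6% for the difference of 4 days from both. The number of calls was 52 without 1 day replicate 2, 37 without 2 days replicate 2, 16 without 1 day replicate 3, 7 without 1 day replicate 1, 2 without 4 days replicate 1, 1 without 4 days replicate 3 and 0 without 2 days replicate 1 or 4 days replicate 2. Values are therefore printed for each sample, and 4 days was also set against each earlier time alone.

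Between 1-2 days and 4 days, 400 genes changed (1.56% of 25585), 257 of them upward (1%) and 143 downward (0.559%). The median difference over all genes was -0.10 log2. The median rise of the called genes was 3.1 log2 and the median fall was -3.15 log2. For 247 of the 257 genes that rose all 3 samples of 4 days lay above all 5 earlier ones, an order found in 6.21% of all genes tested, and 138 of the 143 that fell lay below, beside 4.9% of all genes. Both within-slide differences had the direction of the call for 251 of 256 risen and 140 of 141 fallen genes with both values, and these values share samples with the test. Against 1 day alone 535 genes were called (2.09%) and against 2 days alone 22 (0.086%), 11 higher (0.043%) and 11 lower (0.043%). The first of these counts was lowest without 4 days replicate 1 (147), replicate 3 (168) or replicate 2 (299) and highest without 1 day replicate 2 (1098). The second was 4 without 4 days replicate 1, 5 without 2 days replicate 1, 7 and 13 without 4 days replicates 3 and 2, and 38 to 89 without any 1 of the other 4 arrays. Among the fits that left out 1 array, the count of 400 was lowest without a sample of 4 days. It was 85 without replicate 1, 244 without replicate 2 and 104 without replicate 3. In a fit of the 8 samples alone, with 1-2 days as 1 group, 154 genes were called, 97 of them among the 400. Of the 55 called genes named by the rule in the methods, 17 were called in all 8 fits that left out 1 array, and the exceptions are marked below. Of these 17 genes, 11 were called under every other alternative too. Gad1, Sp8, Gsx1, Cacna2d3 and Ntsr2 were called in 15 of the 16 other alternatives and Cdk5r1 in 14.

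**Figure D1:**
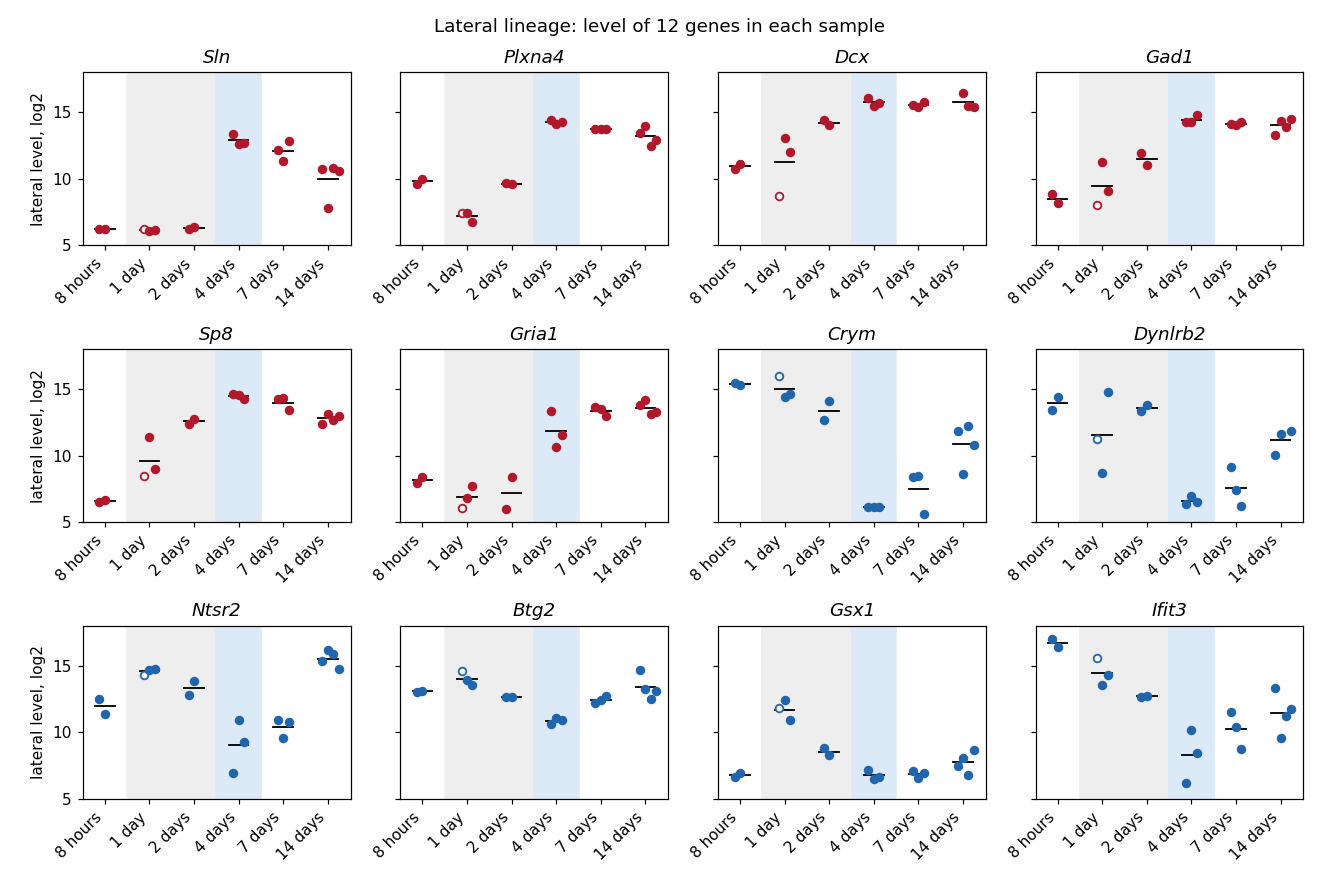
Log2 level of 12 genes (vertical axis) in each lateral sample of the 6 time points (horizontal axis). Red marks genes that rose between 1-2 days (grey band) and 4 days (blue band), blue marks genes that fell, the open point is 1 day replicate 1 and black lines are means. Sln and Plxna4 lie above 12 in all samples of 4 days and below 10 in all of 1-2 days, and Crym runs from 12.64 or more to 6.16 or less.

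The 12 largest rises by fitted difference ranged from 4.97 to 6.66 log2. Sln, which encodes sarcolipin, a small inhibitor of the calcium pump of the sarcoplasmic and endoplasmic reticulum, stood at 6.25, 6.09 and 6.14 at 1 day, 6.22 and 6.37 at 2 days, and 13.34, 12.58 and 12.70 at 4 days. The earlier samples were at the level of background, and all 3 samples of 4 days were far above. On 1 of the 5 earlier arrays an Sln probe, not necessarily this one, was well above background. The fitted difference was 6.66 ± 0.59 log2 (adjusted p = 0.000197), and 7.12 and 6.21 log2 within the 2 slides. Because most of the earlier samples were not well above background, it gives no exact size of the rise and no exact rank for Sln. The other Sln probe, with a difference of 0.03 log2, did not show it.

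Plxna4, a receptor for semaphorins that guide axons and migrating cells, had levels of 7.40, 7.45 and 6.73 at 1 day, 9.66 and 9.58 at 2 days, and 14.40, 14.13 and 14.22 at 4 days. It rose by 6.09 ± 0.32 log2 (68.1-fold, adjusted p = 1.4e-06), and the 2 samples of 2 days lay between the other groups. The 3 Plxna4 probes all had positive differences, of 1.38 to 6.09 log2. Cacna2d3, which was already higher at 2 days, reached 13.66, 13.95 and 14.31 at 4 days and rose by 5.73 ± 0.43 log2 against both earlier times (adjusted p = 5.02e-05). With its levels at 1 day near background, that size is not exact. Tmem130, which encodes a membrane protein, rose by 5.95 ± 0.52 log2 (adjusted p = 0.000197) from 9.0, 6.54, 6.41, 6.45 and 7.48 to 13.18, 13.04 and 13.17.

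Of the other large rises, 5 were called in all 8 fits that left out 1 array. Prkar1b, a regulatory subunit of protein kinase A, rose by 5.76 ± 0.73 log2 (adjusted p = 0.00195), and its other probe had 2.00. Grid2ip, which encodes a scaffold that binds a glutamate receptor of the delta class, rose by 5.59 ± 0.73 log2 (adjusted p = 0.00229). Its 5 earlier levels were 6.44 to 7.32, and 4 of those arrays held it well above background. Synpr, which encodes synaptoporin of synaptic vesicles, rose by 4.97 ± 0.59 log2 (adjusted p = 0.00142) from 8.23, 9.49, 8.37, 11.64 and 8.70 to 15.02, 13.60 and 14.14. Pde4dip, which encodes a protein that anchors phosphodiesterase at the Golgi and centrosome, rose by 5.57 ± 0.68 log2 (adjusted p = 0.00146), with 0.49 to 5.57 log2 over its 7 probes. Cst12, a member of the cystatin family of protease inhibitors, rose by 5.32 ± 0.79 log2 (adjusted p = 0.00528).

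The remaining 3 of the 12 were a guidance receptor, a neuronal factor and a secreted ligand. In each, all 3 samples of 4 days lay above all 5 earlier ones, and the call was lost without 4 days replicate 1 or 3. Prokr2, the receptor for prokineticin 2, which attracts neuroblasts toward the olfactory bulb, was not well above background on any of the 5 earlier arrays (6.14, 6.05, 6.10, 5.83 and 6.24) and reached 12.23, 10.19 and 12.30. For such a probe the fold is a lower bound, set against the lowest signal well above background on each dim array, and it was at least 39.3-fold (adjusted p = 0.0182). Myt1l, a zinc finger factor of neurons, rose by 5.36 ± 0.86 log2 (adjusted p = 0.00816), with 0.54 to 5.63 log2 over its 5 probes. Wnt5a, a ligand of the Wnt family, rose by 5.21 ± 0.89 log2 (adjusted p = 0.0112), and its other probe had -0.21. It was well above background on 3 of the 5 earlier arrays. Without 4 days replicate 1 the adjusted p-values were 0.119 for Prokr2, 0.0551 for Myt1l and 0.0822 for Wnt5a, and without replicate 3 they were 0.117, 0.0584 and 0.071.

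Genes of migrating neuroblasts were higher at 4 days. Of 22 tested, 9 rose and 0 fell, all 22 had a positive difference, and the median was 2.04 log2, beside -0.10 over all genes. Of all genes tested 1% rose and 0.559% fell, shares that stand beside the counts of each list below. Against 2 days alone 0 of the 22 were called, with a median of 1.08 log2, beside 1.65 for 2 days minus 1 day. Nor was any gene of the GABAergic, mature neuron, transit amplifying, proliferation, ependymal or astrocyte lists called against 2 days alone. The migration and interferon lists each had 1 such call. In bulk samples such as these, more cells of a type and more RNA per cell cannot be told apart. Dcx, which encodes the microtubule protein doublecortin of migrating neurons, was at 8.72, 13.08 and 12.01 at 1 day, 14.38 and 13.99 at 2 days, and 16.04, 15.44 and 15.68 at 4 days. Its samples were ordered by time without overlap, and the rise was 3.29 ± 0.73 log2 (adjusted p = 0.0478), with positive values of 2.61 to 4.26 log2 over its 3 probes. St8sia2, the enzyme that puts polysialic acid on NCAM, rose by 3.77 ± 0.75 log2 (adjusted p = 0.0247), from 8.89, 11.38, 8.06, 8.93 and 12.21 to 13.67, 13.64 and 13.69. Nrxn3, a presynaptic adhesion protein, rose by 3.23 ± 0.66 log2 (adjusted p = 0.0275). Nrep, a gene of regenerating neurons, rose by 3.82 ± 0.77 log2 (adjusted p = 0.0265). These 4 calls were lost without 4 days replicate 1 (adjusted p = 0.231 for Dcx, 0.124 for St8sia2, 0.104 for Nrxn3 and 0.126 for Nrep), without replicate 2 (0.118, 0.0825, 0.109 and 0.1), without replicate 3 (0.186, 0.124, 0.141 and 0.115) and without 1 day replicate 3 (0.0789, 0.0509, 0.0612 and 0.0667), and that of Dcx also without 2 days replicate 2 (0.0548). Within the 2 slides the median of the 22 genes was 1.09 and 1.07 log2. Their summed signal on the linear scale was 233000 to 498000 units in the 5 earlier samples and 732000 to 845000 at 4 days.

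Of 23 genes of GABAergic and olfactory bulb interneurons tested, 7 rose and 0 fell, 21 had a positive difference, and the median difference was 2.46 log2. The median against 2 days alone was 1.63 log2, beside 1.44 for 2 days minus 1 day. Gad1, which encodes the enzyme that makes GABA, was at 8.01, 11.28 and 9.09 at 1 day, 11.96 and 11.02 at 2 days, and 14.24, 14.24 and 14.80 at 4 days, a rise of 4.15 ± 0.57 log2 (17.8-fold, adjusted p = 0.00311). Sp8, a zinc finger factor of olfactory bulb interneurons, rose by 3.68 ± 0.52 log2 (adjusted p = 0.00354), and its samples of 1 day (8.45, 11.36 and 8.96), 2 days (12.38 and 12.74) and 4 days (14.59, 14.53 and 14.24) did not overlap. Within the 2 slides Gad1 differed by 2.28 and 3.21 log2 and Sp8 by 2.21 and 1.79. Both were called in all 8 fits that left out 1 array and in 15 of the 16 other alternatives. The highest adjusted p was 0.104 for Gad1 and 0.208 for Sp8. Dlx6os1, a long noncoding RNA antisense to Dlx6, rose by 3.39 ± 0.65 log2 (adjusted p = 0.0218), but not without 4 days replicate 1 (0.0844), 2 (0.0726) or 3 (0.129). Gad2, the second GABA synthesizing enzyme, had a difference of 2.46 log2 that was not called (adjusted p = 0.17). The summed signal of the list was 54100 to 164000 units at 1-2 days and 374000 to 478000 at 4 days.

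Among the 16 subpallial factors 2 rose and 2 fell, and their median was 0.08 log2, which changed sign in 2 of 24 alternatives. The homeobox genes Meis1 and Meis2 rose by 3.22 ± 0.51 log2 (adjusted p = 0.00799) and 1.84 ± 0.29 log2 (adjusted p = 0.0103). Meis2, which is known from subpallial neuroblasts, was at 14.52, 14.45, 14.04, 14.56 and 14.07 before and at 15.97, 15.85 and 16.68 at 4 days. Without 4 days replicate 1 the adjusted p-values were 0.0512 for Meis1 and 0.0512 for Meis2, and without replicate 3 that of Meis2 was 0.0668. The progenitor factor Gsx1 fell, as given below with the transit amplifying genes. No member of the 14 pallial factors was called, the smallest adjusted p being that of Pax6 (0.0568, at 2.16 log2).

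Genes of neuron maturation and migration gave fewer calls. Of 24 genes of mature neurons 5 rose and 0 fell, with a median of 0.93 log2. Gria1, an AMPA glutamate receptor subunit, rose by 4.81 ± 0.63 log2 (adjusted p = 0.00229), from 6.09, 6.83, 7.74, 6.03 and 8.40 to 13.31, 10.61 and 11.55. Its 2 probes had 2.88 and 4.81 log2, and its levels of 6.09 and 6.03 lay near background. Syp, the synaptic vesicle protein synaptophysin, rose by 3.20 ± 0.51 log2 (adjusted p = 0.00799), and its levels stepped from 8.46, 8.51 and 8.10 at 1 day to 12.02 and 11.48 at 2 days and to 13.06, 12.98 and 12.69 at 4 days. Gria2, another AMPA receptor subunit, rose by 3.44 ± 0.58 log2 (adjusted p = 0.0152), though 1 of its 3 probes had 0.02. The differences of the memory related kinase gene Camk2a (-0.77) and of the surface protein gene Thy1 (-2.64) were negative and not called. Gria1 was called in all 8 fits, while leaving out 4 days replicate 1 gave an adjusted p of 0.0584 for Syp and 0.0893 for Gria2. For Gria2 it was 0.0537 without replicate 2 and 0.0837 without replicate 3.

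In the list of migration and guidance 4 of 25 rose and 0 fell, with a median of 0.54 log2. They were Plxna4 and Prokr2, given above, Vldlr and Cdk5r1. Vldlr, a receptor for reelin, rose by 4.26 ± 0.71 log2 (adjusted p = 0.00975). Cdk5r1, the activator of the kinase Cdk5, rose by 2.16 ± 0.24 log2 (adjusted p = 0.00138), from 12.32, 12.65 and 11.88 at 1 day and 13.86 and 13.67 at 2 days to 15.16, 14.82 and 15.14 at 4 days. Its samples of the 3 times did not overlap. It was called in all 8 fits that left out 1 array and in 14 of the 16 other alternatives (highest adjusted p = 0.132). Vldlr was not called without 4 days replicate 1 (adjusted p = 0.071) or 3 (0.0656). The ligand of Prokr2, Prok2, had a negative difference that was not called (-3.65 log2, adjusted p = 0.2).

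Of 14 genes of transit amplifying cells 3 fell and 0 rose, 13 had a negative difference, with a median of -1.49 log2. Gsx1, a homeobox factor of subpallial progenitors, was at 11.79, 12.40 and 10.91 at 1 day, 8.81 and 8.27 at 2 days and 7.17, 6.53 and 6.68 at 4 days. It fell by 3.65 ± 0.42 log2 (adjusted p = 0.00134) and was lower at each later time without overlap. Btg2, a brake on cell division in neurogenic progenitors, fell by 2.58 ± 0.42 log2 (adjusted p = 0.00883), from 14.57, 13.90, 13.55, 12.63 and 12.67 to 10.64, 11.11 and 10.89. Gsx1 was called in all 8 fits that left out 1 array and in 15 of the 16 other alternatives (highest adjusted p = 0.181). Btg2 was not called without 4 days replicate 1 (0.0687) or 3 (0.0508). The median of the 14 genes within the 2 slides was -1.73 and -0.97 log2.

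Genes of cell division gave a single call. Of 31 genes of DNA replication and mitosis 1 fell and 0 rose, 30 had a negative difference, and the median was -1.13 log2. For 13 of the 31 all samples of 4 days lay below all earlier ones, an order found in 4.9% of all genes tested. Mcm5, a subunit of the replicative helicase, was at 14.86, 14.91, 14.80, 14.48 and 14.64 before and at 12.10, 13.27 and 12.09 at 4 days, a fall of 2.25 ± 0.52 log2 (adjusted p = 0.0492). That call was lost in each of the 8 fits that left out 1 array, with adjusted p-values from 0.055 without 4 days replicate 2 to 0.262 without 4 days replicate 1. Mki67, a marker of cycling cells, was at 14.99, 14.75, 14.33, 14.50 and 14.20 against 11.71, 13.19 and 13.53, a difference of -1.74 ± 1.04 log2 that was not called (adjusted p = 0.547). Cdk1, the kinase that drives entry into mitosis, was at 6.15 in 1 day replicate 1, at 12.35 to 13.32 in the other 4 earlier samples and at 10.30, 11.85 and 10.81 at 4 days. No gene of 17 cyclins and inhibitors of their kinases was called, and the smallest adjusted p was that of Ccnd1, cyclin D1 (0.0738, at -2.75 log2). Within the 2 slides the median of the 31 genes was -1.98 and -0.71 log2, so that both slides gave the same sign and different sizes.

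**Figure D2:**
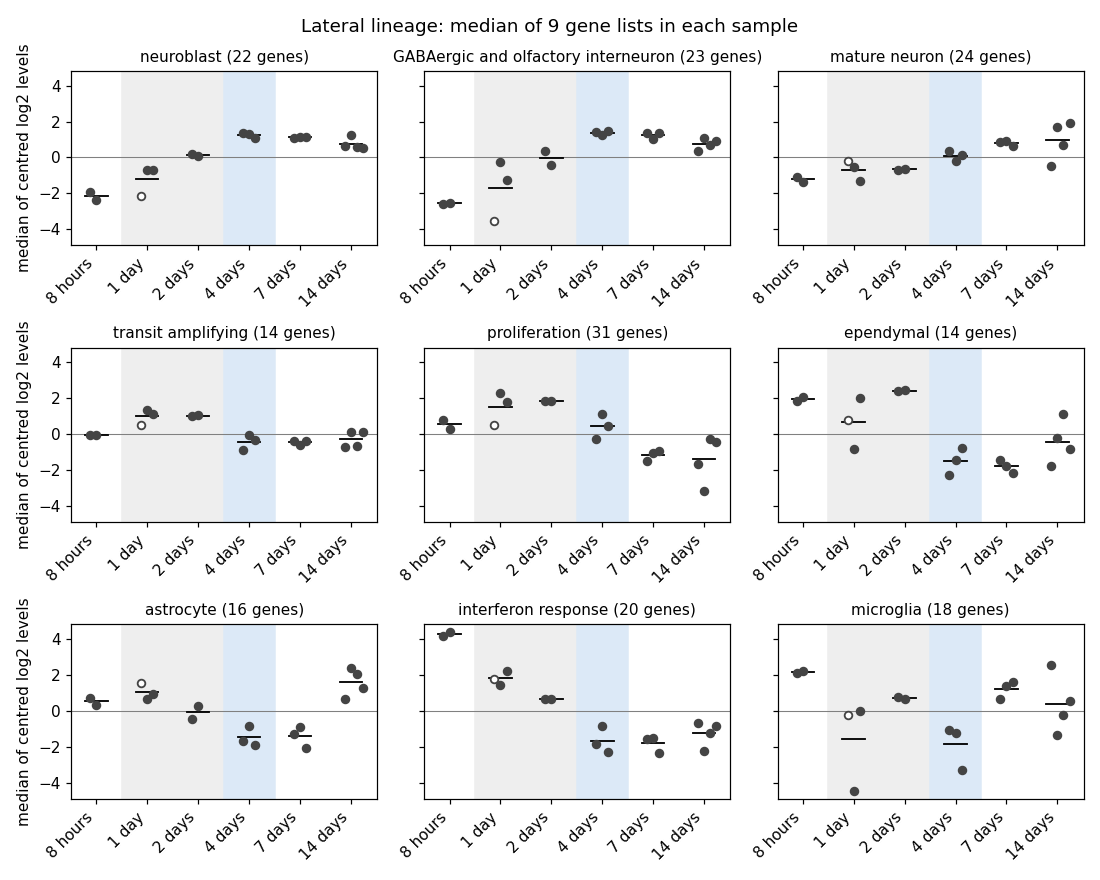
Median over the genes of 9 lists (vertical axis, log2 level of each gene centred on its mean over the samples) in each lateral sample of the 6 time points (horizontal axis). Points are samples, the open point is 1 day replicate 1, black lines are means, and the grey and blue bands mark 1-2 days and 4 days. The neuroblast medians run from -2.15 to 0.20 at 1-2 days and from 1.1 to 1.39 at 4 days, and the interferon medians from 0.69 to 2.26 and from -2.26 to -0.83.

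The largest fall of all was that of Crym, which is in none of the cell type lists. It encodes mu-crystallin, a protein that binds thyroid hormone. It was at 15.96, 14.40 and 14.64 at 1 day and 12.64 and 14.10 at 2 days, and at 6.12, 6.16 and 6.16 at 4 days, where no array held it well above background. The fall was at least 279-fold (adjusted p = 0.000339), and the difference was -6.52 and -7.94 log2 within the 2 slides. The mean level of Crym was 7.50 at 7 days and 10.86 at 14 days.

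Of 14 ependymal genes 3 fell and 0 rose, with a median of -2.98 log2, and of -4.05 and -4.09 log2 within the 2 slides. Foxj1, the factor that directs the formation of motile cilia, was at 11.40, 11.63, 13.27, 13.34 and 13.39 before and at 7.64, 8.76 and 10.08 at 4 days, a fall of 3.78 ± 0.65 log2 (adjusted p = 0.0135). Dynlrb2, a dynein light chain, fell by 5.76 ± 1.07 log2 (adjusted p = 0.0212), from 11.22, 8.70, 14.74, 13.36 and 13.81 to 6.35, 6.98 and 6.49. On 2 of the 3 arrays of 4 days any of its probes was well above background. The lowest earlier value of Dynlrb2 was that of 1 day replicate 2, whose summed signal over the list was also the lowest (14300 units, beside 63700 to 106000 in the other 4 earlier samples and 6330 to 6510 at 4 days). Cfap126, which encodes a protein of cilia and their basal bodies, fell by 5.37 ± 1.01 log2 (adjusted p = 0.0186). Outside the list, Ccno, a cyclin needed to multiply centrioles in cells with many cilia, fell by 5.30 ± 0.90 log2 (adjusted p = 0.0108). Leaving out 4 days replicate 1 gave an adjusted p of 0.0962 for Foxj1, 0.118 for Dynlrb2, 0.0821 for Cfap126 and 0.0796 for Ccno. Without replicate 2 it was 0.0503 for Foxj1, 0.0589 for Dynlrb2 and 0.0726 for Cfap126, and without replicate 3 it was 0.108 for Dynlrb2 and 0.107 for Cfap126. The call of Dynlrb2 was also lost without 2 days replicate 2 (0.0548).

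Of 16 astrocyte genes 3 fell and 0 rose, with a median of -1.73 log2. Ntsr2, a neurotensin receptor of astrocytes, fell by 5.01 ± 0.71 log2 (adjusted p = 0.00354) from 14.29, 14.70, 14.76, 12.78 and 13.83 to 6.99, 10.94 and 9.26, and its mean was 15.52 at 14 days. Its other probe had -3.20 log2. Gfap, the intermediate filament of astrocytes, fell by 4.18 ± 0.88 log2 (adjusted p = 0.031) from 14.42, 11.00, 11.76, 9.83 and 10.92 to 7.65, 7.97 and 6.58, with -4.18 to -1.59 log2 over its 3 probes. Clu, which encodes the secreted chaperone clusterin, fell by 3.48 ± 0.67 log2 (adjusted p = 0.0237). Aldh1l1, another astrocyte gene, had a difference of -2.30 log2 that was not called (adjusted p = 0.09). Ntsr2 was called in all 8 fits that left out 1 array and in 15 of the 16 other alternatives (highest adjusted p = 0.0576). Leaving out 4 days replicate 1 gave an adjusted p of 0.132 for Gfap and 0.155 for Clu, and without replicate 3 it was 0.184 and 0.13. The call of Gfap was also lost without 4 days replicate 2 (0.0731) and 1 day replicate 3 (0.0579).

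Of 22 radial glia and stem cell genes 1 fell and 0 rose, with a median of -0.84 log2. Nr2e1, an orphan nuclear receptor that keeps neural stem cells in division, fell by 2.72 ± 0.55 log2 (adjusted p = 0.0267), from 9.99, 11.54, 10.42, 8.33 and 8.97 to 6.88, 7.43 and 7.07. The call was lost in 5 of the 8 fits without 1 array, with an adjusted p of 0.154 without 4 days replicate 1, 0.134 without replicate 3, 0.0687 without replicate 2, 0.056 without 1 day replicate 2 and 0.0622 without 1 day replicate 3. Sox2, a factor of stem cells, had a difference of 0.07 log2 (adjusted p = 0.94). Of 20 genes of the Notch pathway 1 fell, the receptor Notch3, which is also a mark of mural cells of vessels (-3.43 ± 0.64 log2, adjusted p = 0.0182; 0.121 without 4 days replicate 1 and 0.125 without replicate 3). Fosb, the single gene called of 18 immediate early genes, which respond within minutes to stimulation, fell by 3.55 ± 0.63 log2 (adjusted p = 0.0143; 0.0838 without 4 days replicate 1 and 0.103 without replicate 3). Its levels were 12.28, 12.41, 12.02, 12.47 and 12.61 before and 8.86, 10.04 and 7.53 at 4 days, and its means were 13.93 at 7 days and 13.89 at 14 days.

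Genes of the interferon response, which cells switch on against viruses and foreign nucleic acid, were lower at 4 days. Of 20 tested 10 fell and 0 rose, all 20 had a negative difference and the median was -3.48 log2. For 12 of the 20 all samples of 4 days lay below all earlier ones, beside 4.9% of all genes tested. Type I interferon acts through a complex of STAT and IRF proteins that binds the interferon-stimulated response element. The letters GAAANNGAAA, a core of that element and 1 of 6 motifs examined, were searched on both strands of the 300 bases around each gene start in RefSeq promoters (GRCm38.p6, 250 bases before to 50 after). They were found in 9 of the 15 list genes with a promoter in that table (60%) and in 1131 of all 32851 promoters (3.44%). A list gene counted where any of its promoters matched, so the 2 shares differ in unit. A match is a description of the letters and was not tested as a binding site. The 4 genes below had the largest falls of the list, and 150 bases, from 180 to 31 before the start of each, are shown 5′ to 3′ on the strand of the gene, with each match in capitals, read on either strand and merged where matches overlap.
Ifit3 (chr19:34583349-34583498, plus strand): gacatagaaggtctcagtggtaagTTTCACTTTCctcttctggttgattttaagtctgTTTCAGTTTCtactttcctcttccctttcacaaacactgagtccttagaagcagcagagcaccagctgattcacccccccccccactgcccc
Ifit1 (chr19:34640709-34640858, plus strand): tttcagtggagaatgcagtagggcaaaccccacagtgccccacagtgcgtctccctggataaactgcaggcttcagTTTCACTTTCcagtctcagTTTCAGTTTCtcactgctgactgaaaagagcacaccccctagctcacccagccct
Rsad2 (chr12:26456483-26456632, minus strand): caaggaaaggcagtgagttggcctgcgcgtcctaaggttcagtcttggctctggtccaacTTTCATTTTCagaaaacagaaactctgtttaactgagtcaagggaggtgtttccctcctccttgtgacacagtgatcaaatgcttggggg
Bst2 (chr8:71537503-71537652, minus strand): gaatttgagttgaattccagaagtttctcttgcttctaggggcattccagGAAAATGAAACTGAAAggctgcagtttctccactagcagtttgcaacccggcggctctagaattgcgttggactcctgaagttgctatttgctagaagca

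Ifit3, whose product restricts viral RNA together with Ifit1, held 2 matches and had levels of 15.56, 13.55 and 14.26 at 1 day, 12.68 and 12.75 at 2 days and 6.22, 10.14 and 8.48 at 4 days. It fell by 5.48 ± 0.93 log2 (adjusted p = 0.0109), with 2 of the 3 samples of 4 days well above background, the samples of the 3 times did not overlap, and the mean at 8 hours was 16.68. Ifit1, also with 2 matches, fell by 5.29 ± 1.11 log2 (adjusted p = 0.0311), from 13.93, 12.31, 13.70, 11.84 and 12.20 to 6.22, 9.92 and 6.37, where 1 of the 3 was well above background. Rsad2, which encodes the antiviral enzyme viperin and held 1 match, fell by 5.18 ± 0.99 log2 (adjusted p = 0.0206), from 15.95, 12.73, 15.37, 11.97 and 12.61 to 7.38, 9.26 and 9.0, with -5.18 to -0.71 log2 over its 3 probes. Bst2, which encodes tetherin and held 2 matches, fell by 4.12 ± 0.85 log2 (adjusted p = 0.0316), in a fit that lacked 2 days replicate 1, whose spot was marked as an outlier. In all 4 genes replicate 2 was the highest of the 3 samples of 4 days. Of the list's other called genes with a promoter in that table, Ifih1 held a match and Ifi44, Oasl1 and Irf7 held none. Of those not called, Isg15, Oas1a, Ddx58 and Stat2 held a match and Oasl2, Ifit2 and Irf9 held none. Whether a match went with the fall was not tested. Irf7 is the factor that amplifies the interferon response. It fell by 2.83 ± 0.44 log2 (adjusted p = 0.00689), with the samples of 2 days (11.60 and 10.53) above those of 1 day (8.74, 9.54 and 7.35) and the samples of 4 days at 6.67, 6.85 and 6.65. Isg15, the ubiquitin-like product of the pathway, had a difference of -3.69 log2 that was not called (adjusted p = 0.0702).

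Leaving out 4 days replicate 1 raised the adjusted p to 0.0822 for Ifit3, 0.205 for Ifit1, 0.14 for Rsad2 and 0.138 for Bst2, and leaving out replicate 3 raised it to 0.0573, 0.189, 0.084 and 0.161. The call of Ifit1 was also lost without 1 day replicate 1 (0.0561), 1 day replicate 3 (0.0692) or 2 days replicate 2 (0.0547), that of Rsad2 without 1 day replicate 3 (0.0527), and that of Bst2 without 1 day replicate 1 (0.0582), 2 (0.0564) or 3 (0.0766). Within the slide of replicates 1 the median of the 20 interferon genes was -3.33 log2, and within that of replicates 2 it was -1.22. Their summed signal was 320000, 171000 and 299000 units at 1 day, 87900 and 85100 at 2 days and 21700, 35100 and 14300 at 4 days. Every later time was lower than the one before it on this sum.

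Markers of microglia, the immune cells of the brain, had mostly negative differences. Of 18 tested 0 were called, 17 had a negative difference, and the median was -1.37 log2. The summed signal of the 18 was 356000, 8460 and 183000 units at 1 day, 244000 and 239000 at 2 days and 75200, 71200 and 14700 at 4 days. The 1 day replicate 2 sample was the lowest of all 8 on this sum, below the samples of 4 days, while its interferon sum of 171000 lay above both samples of 2 days. Aif1, which encodes the microglial protein Iba1, was at 15.60, 8.14 and 14.68 at 1 day, 14.08 and 14.58 at 2 days and 12.33, 13.14 and 10.49 at 4 days. Of 16 neutrophil markers 0 were called, and all 16 differences were negative (median -0.65 log2). Against 2 days alone the median was 0.12 log2, and 0.053 and 0.115 within the 2 slides, beside -1.03 for 2 days minus 1 day. Of the 16, 4 were well above background on every array of 4 days. The summed signal was 2700 to 94900 units at 1-2 days, with the highest value in 1 day replicate 3, and 2000 to 2430 at 4 days. S100a8, which encodes a protein of neutrophils, was at 14.54 in that sample, at 6.51 to 10.67 in the other 4 earlier samples and not well above background on any array of 4 days. The part of these cells in the changes of the interferon and glial genes was not tested.

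Markers of vessels, blood and coverings of the brain gave a single call. Of 14 endothelial genes 0 were called (median -0.42 log2), and their summed signal was 5580 to 11500 units at 1-2 days and 2610 to 3000 at 4 days, with the endothelial receptor Kdr not well above background on any of the 8 arrays. Of 12 mural genes 1 fell (Notch3, above), with a median of -0.41 log2 and sums of 33800 to 68700 and 27200 to 58100 units. Of 9 erythroid genes and 12 meningeal genes 0 were called. The erythroid sum was 171000 units in 1 day replicate 3 and 130000 in 4 days replicate 3, and 3340 to 9580 in the other 6 samples. Of 16 oligodendrocyte lineage genes 0 were called, and the basic helix-loop-helix factors Olig1 and Olig2 had the most negative differences (-3.80 and -2.84 log2, adjusted p = 0.27 and 0.246). The other Olig2 probe had -0.14 log2.

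**Figure D3:**
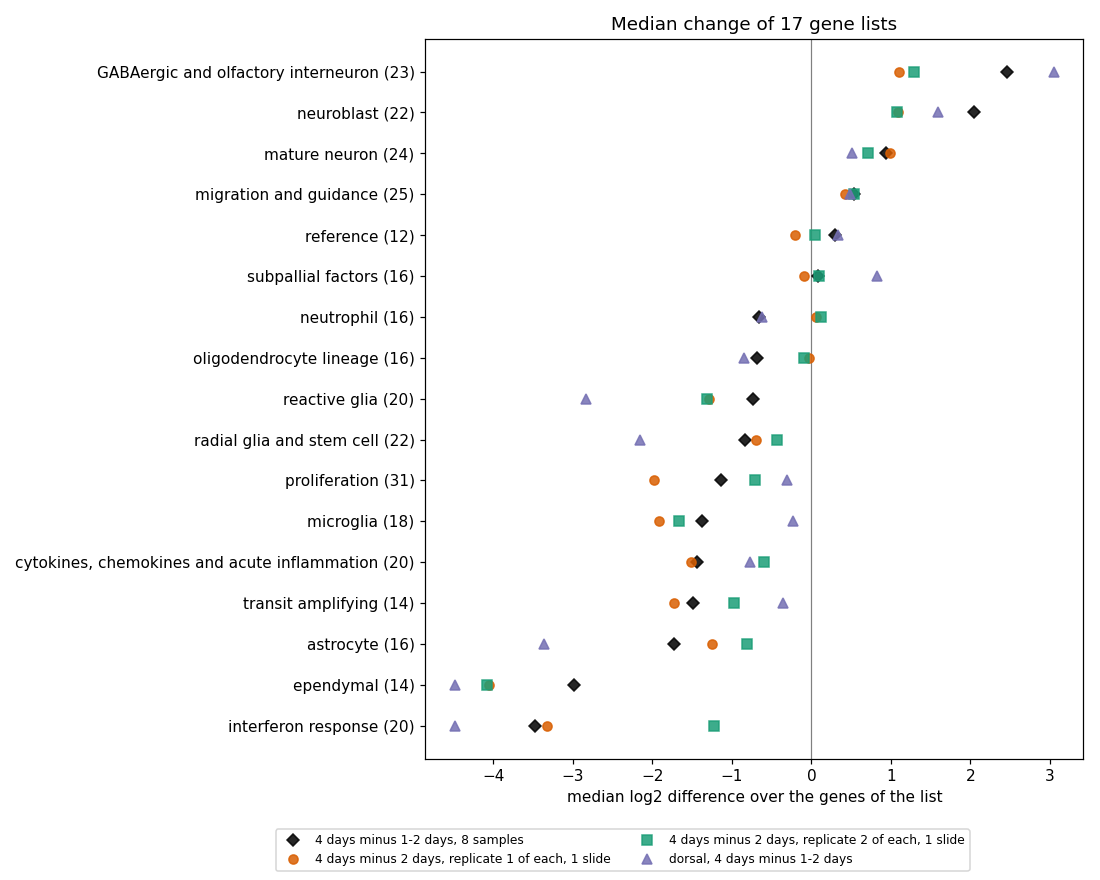
Median log2 difference (horizontal axis) over the genes of 17 lists (vertical axis, with the number of genes). Diamonds are lateral 4 days minus 1-2 days, circles and squares are lateral 4 days minus 2 days within the slide of replicates 1 and of replicates 2, and triangles are the dorsal samples of the same arrays. The neuroblast and GABAergic lists lie between 1.07 and 3.05 in all 4 values, and the ependymal list between -4.48 and -2.98.

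The dorsal samples on the same arrays gave 233 rises (0.911%) and 495 falls (1.93%) between the same times. The difference between both walls was tested within arrays, on the lateral over dorsal ratio. It carries the difference in dye and named RNA type with that of the wall. It was called for 7 genes (0.0274% of 25585), with the lateral change above the dorsal one in 6 (0.0235%) and below it in 1 (0.00391%), and 2479 had an unadjusted p under 0.05. The count was 0 without 4 days replicate 2, 1 without 2 days replicate 1, 3 and 4 without 1 day replicates 1 and 2, and 13 without 1 day replicate 3. None of the 12 largest lateral rises and 12 largest falls differed between the walls by this test, with the smallest adjusted p at 0.0977 for Plxna4 among the rises and 0.552 among the falls, which does not show that the walls changed alike. Plxna4 was at 9.14, 13.17, 10.32, 12.28 and 11.92 in the dorsal samples of 1-2 days and at 13.27, 12.46 and 12.08 at 4 days, so its dorsal samples overlapped, and the wall difference was 4.85 ± 0.81 log2. Gad1 rose in both walls, by 5.46 log2 in the dorsal one (adjusted p = 0.00143) and 4.15 in the lateral one. Ifit3 fell by 7.54 log2 in the dorsal samples (adjusted p = 0.0149), beside 5.48 in the lateral ones. The dorsal medians of the lists were 1.60 log2 for neuroblast genes, 3.05 for GABAergic genes, -4.48 for ependymal genes and -4.48 for interferon genes. For transit amplifying and proliferation genes the dorsal medians were -0.35 and -0.31 log2, beside -1.49 and -1.13 in the lateral samples. No gene of either of these lists passed the wall test, and the smallest adjusted p-values were 0.185 and 0.338.

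**Figure D4:**
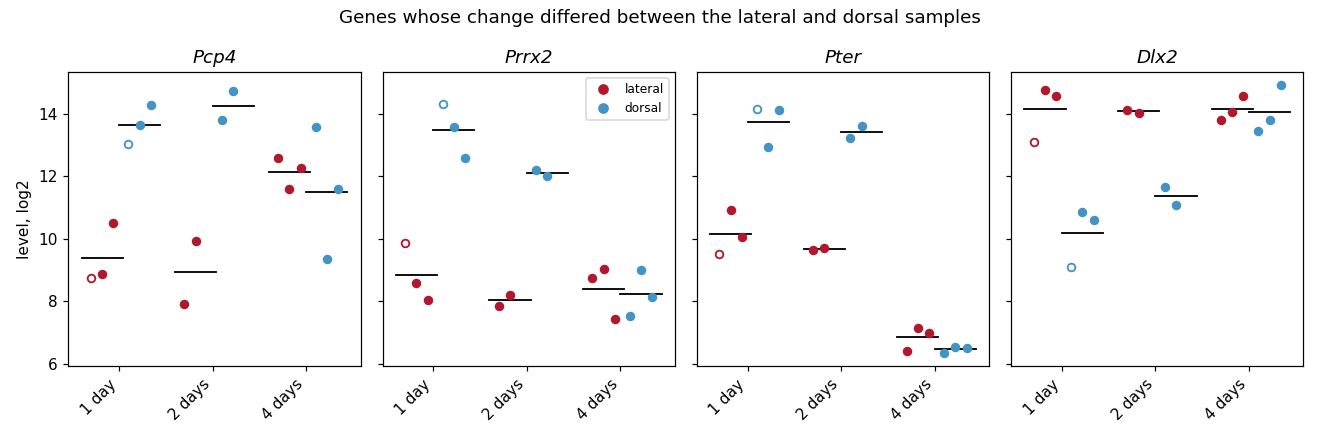
Log2 level (vertical axis) of 4 genes whose change differed between the walls, in lateral (red) and dorsal (blue) samples at 1, 2 and 4 days (horizontal axis). Points are samples, open points are 1 day replicate 1 and black lines are means. In all 4 genes the lateral and dorsal samples were separate at 1-2 days, and at 4 days the samples of both walls overlapped in each of them.

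Dlx2, a homeobox factor of the subpallial lineage, had a lateral difference of 0.03 ± 0.40 log2, at 13.08, 14.76, 14.56, 14.12 and 14.02 before and 13.80, 14.05 and 14.58 at 4 days. Its dorsal levels rose from 9.10, 10.87, 10.61, 11.66 and 11.07 to 13.44, 13.78 and 14.90 (3.38 log2, adjusted p = 0.0096). The lateral minus dorsal change was -3.35 ± 0.34 log2 (adjusted p = 0.00783), and it was called in 7 of 8 fits without 1 array, the exception being that without 4 days replicate 2 (0.0676). Pcp4, a small regulator of calmodulin, was at 8.75, 8.88, 10.52, 7.93 and 9.94 before and 12.57, 11.59 and 12.26 at 4 days in the lateral samples, which did not overlap and missed the threshold (2.94 ± 0.69 log2, adjusted p = 0.0544). In the dorsal samples it was at 13.03, 13.63, 14.29, 13.80 and 14.71 and then at 13.57, 9.36 and 11.58, and the wall difference was 5.32 ± 0.74 log2 (adjusted p = 0.0422).

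Prrx2, a homeobox factor known from mesenchyme, did not pass the lateral test (-0.11 ± 0.57 log2), with 9.88, 8.58, 8.05, 7.85 and 8.22 before and 8.75, 9.04 and 7.44 at 4 days. In the dorsal samples it fell by 4.70 log2 (adjusted p = 0.000944), and the walls differed by 4.59 ± 0.59 log2 (adjusted p = 0.0303). Pter, which encodes a protein related to phosphotriesterases, fell in both walls, by 3.1 ± 0.35 log2 in the lateral samples (adjusted p = 0.000988) and by 7.13 log2 in the dorsal ones (adjusted p = 2.1e-05). Its lateral levels were 9.51, 10.92, 10.06, 9.64 and 9.72 before and 6.43, 7.17 and 7.00 at 4 days. Its dorsal levels were 14.15, 12.94, 14.11, 13.22 and 13.60 before and 6.36, 6.54 and 6.52 at 4 days. The wall difference of Pter was 4.03 ± 0.58 log2 (adjusted p = 0.0424). Both walls lay near background at 4 days, so neither the falls nor the wall difference have an exact size. The wall calls of Pcp4, Prrx2 and Pter held in 2, 3 and 1 of the 8 fits without 1 array. The adjusted p of Pcp4, Prrx2 and Pter was highest without 4 days replicate 2, at 0.164, 0.142 and 0.184. The other called genes were Pacsin3, at 3.18 log2 and named after its value was seen, and 2 probes with no gene name.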

How the data were processed

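The deposited scanner files hold Cy3 and Cy5 intensity per spot, made by the authors in versions 10.5.1.1 and 10.7.3.1 of Agilent Feature Extraction, per the file headers, which also wrote a log10 ratio of Cy5 over Cy3. Samples were 200 ng of amplified cDNA, per the labels' protocols. A deposited table of log2 ratios holds Cy3 over Cy5 (its correlation with the scanner ratio is negative on every array), and it served as an alternative for the wall test.

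Here, mean signals were background corrected (normexp, offset 50), then put through loess within each array (control spots weighted 0) and Aquantile between arrays. Outlier spots were set missing and spots of a probe averaged. Of 41174 probes, 26876 were named by RefSeq accession and 3241 by symbol or synonym through a RefSeq table (GRCm38.p6), and 11057 kept the name in the files. Probes well above background in Cy5 on at least 2 of 17 arrays were kept, with the brightest probe per gene. The lateral log2 levels of all 17 arrays were fitted with limma 3.58.1 (R 4.3.3), 1 mean per time, at an adjusted p threshold of 0.05. The wall test used the within-array log2 ratio.

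The comparison and the gene lists were chosen with earlier results of these data known, while the labels fix which samples belong to each time. Genes named were the 12 largest rises and 12 largest falls that were called, did not overlap and were above background on every array of 1 side, up to 4 called members of each list (or 2 of smallest p), and the 3 largest each way in the wall test and between 2 days and 1 day. A few other list members are named as examples, with their values in view, and some items are not reported here. The steps were tested on simulated data. Alternatives covered normalization, background, filter, probes, samples, weights, batches, replicate blocks and single arrays left out. Same-numbered samples of different times did not deviate together (correlations of 0 to 0.14), so numbers were not used to pair samples.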

Additional observations from a re-analysis of the deposited data

Results flagged for a closer look

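Within the 5 lateral samples of 1-2 days, 1 sample lay far from the other 4 in 6 of the 85 genes examined, where chance gives about 1 in 20. The measure is the gap to the nearest sample divided by the range of all 5. The 1 day replicate 1 sample was the one apart in 4 genes. It was high in Armc3 (15.21, others 10.43 to 11.26, gap 0.827 of the range), in the Hedgehog target Gli1 (9.03, others 7.23 to 7.63, 0.779) and the glycolytic enzyme gene Aldoa (15.14, others 14.42 to 14.55, 0.821). It was low in Smo, the Hedgehog signal transducer (10.95, others 12.95 to 13.66, 0.739). The 1 day replicate 2 sample was high in the haemoglobin gene Hbb-bs (8.31, others 6.10 to 6.46, 0.840). The 1 day replicate 3 sample was high in the laminin gene Lama1 (9.88, others 6.10 to 6.89, 0.790). Armc3 fell by 4.82 ± 1.07 log2 (limma adjusted p = 0.0419). Leaving out single arrays ended its call in 5 of 8 fits, at adjusted p-values of 0.0589 to 0.2.

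The lateral change differed from the dorsal one by the test within arrays in Dlx2 (-3.35 log2), Pcp4 (5.32), Prrx2 (4.59) and Pter (4.03), as described above.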

How the results depend on the processing

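The 400 genes called between 1-2 days and 4 days became 219 with 75th percentile scaling, 154 with the 8 arrays alone, 1794 with array weights, 236 with a replicate block, 156 with the software version as a block and 910 without 1 day replicate 1 and 14 days replicate 2, and 85 to 538 with 1 array left out. Between 2 days and 1 day the 2 calls became 4 with quantile normalization of Cy5, 6 without loess, 8 with the processed signal, 59 with array weights, 50 with slide as a random block, 1 with the software block, 13 without both arrays, 0 with percentile scaling, the 8 arrays alone or the replicate block, and 0 to 52 with 1 array left out. The 535 calls against 1 day became 322 with percentile scaling, 1359 with weights, 1981 with the slide block, 275 with the software block and 965 without both arrays (147 to 1098 with 1 array left out). The 22 against 2 days (11 higher, 11 lower) became 44 with quantile normalization of Cy5 (27 higher, 17 lower) or of all 34 channels (28 higher, 16 lower), 5 with percentile scaling (4 higher, 1 lower), 47 without loess, 35 with the processed signal, 34 without background correction, 14 with the stricter filter, 7 with the 8 arrays, 720 with weights, 13 with the replicate block, 11 with the software block, 37 with the scan day block and 171 without both arrays (4 to 89 with 1 array left out). The 7 wall calls became 0 with the replicate block or the deposited value table and 1 with the processed signal (0 to 13 with 1 array left out). Percentile scaling moved the median of all genes to -0.69 for 2 days minus 1 day, -0.47 for 4 days minus 1 day and 0.31 for 4 days minus 2 days. The single genes named by the rule gave 1819 values with an unchanged call, 44 newly called, 258 no longer called and 13 that moved. None of the 55 called genes among them changed direction, and the other called genes were not examined for this. The cause of these differences was not tested. Of the list medians, those of the subpallial, heat shock, erythroid, meningeal, nuclear factor I and reference lists changed sign in 1 to 4 of 24 alternatives. Signal over background limits genes near level 6.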

Other observations

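Lists of other processes gave few calls between 1-2 days and 4 days, beside 1% of all genes that rose and 0.559% that fell. Of 20 genes of reactive glia 2 fell, Gfap and Cd44, a receptor for hyaluronan (-3.15 ± 0.62 log2, limma adjusted p = 0.0237, with -0.60 for another of its 3 probes). The Cd44 call was lost without 1 day replicate 3 (0.063) and without each sample of 4 days (0.0873, 0.101 and 0.112). Of 11 choroid plexus genes 1 rose, Enpp2, which encodes the enzyme autotaxin (3.28 ± 0.71 log2, adjusted p = 0.0419), and it was lost in 7 of the 8 fits without 1 array. Of 20 cytokine and acute inflammation genes 0 were called, with a median of -1.43 log2 and the smallest adjusted p at Cxcl10 (0.0668), and 18 differences were negative. Of 17 glycolysis genes 0 were called, with a median of -0.999 log2. No gene was called among 11 Hedgehog, 16 p53 target, 16 heat shock, 10 DNA methylation, 4 nuclear factor I or 12 reference genes, whose medians ran from -0.63 to 0.44 log2.

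Among the other large falls, Col16a1, a collagen chain, fell by 5.21 ± 0.82 log2 (adjusted p = 0.00747, with -0.41 for its other probe), and Capg, which caps actin filaments, by 5.54 ± 1.24 log2 (0.0434), with 1 of its 3 samples of 4 days well above background. Leaving out single arrays kept the call of Capg in 1 of 8 fits and that of Col16a1 in 6. Meig1 was at 12.99, 7.81, 12.92, 10.93 and 12.03 at 1-2 days and not well above background at 4 days, a fall of at least 36.1-fold (0.0237). Its call was lost without 4 days replicate 1 (0.117), 2 (0.0757) or 3 (0.12) and without 2 days replicate 2 (0.0505).

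The other 5 motifs searched in the promoter windows, on both strands, were CCAAT, the letters TTTGAA, the E-box CAGCTG, the homeobox core TAATT and the X-box of ciliary genes. A list gene counted where any of its promoters matched, while the share of all is per promoter, so these shares differ in unit. CAGCTG stood in 5 of 12 neuroblast genes (41.7%) and 16.3% of all promoters. TAATT stood in 5 of 13 GABAergic genes (38.5%) and 27% of all promoters, and the X-box in 0 of 11 ependymal genes and 1.72% of all promoters. CCAAT, the letters bound by the factor NF-Y, stood in 23 of 27 proliferation genes (85.2%) and in 37.4% of all 32851 promoters. It also stood in 66.7% of neuroblast, 53.8% of GABAergic, 36.4% of ependymal and 33.3% of interferon genes. TTTGAA, from the cell cycle homology region, stood in 12 of 27 proliferation genes (44.4%) and in 17.9% of all promoters. A match was not tested as a binding site.

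At 7 days the mean of 240 of the 257 risen and 122 of the 143 fallen genes lay beyond the midpoint between both earlier means, on the side of 4 days, and at 14 days that held for 196 and 73. The genes were chosen by the samples that set this midpoint. The share over all genes was not computed, so the counts do not show how unusual this is.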
